A study of Mus musculus with 54 samples.

Results

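The replication-dependent histone genes were taken as all genes of the deposited mouse table whose symbol begins with Hist1h, Hist2h, Hist3h or Hist4h. They numbered 70 of the 45802 genes listed. By the letters of their symbols 6 encoded linker histone H1, 20 encoded H2a, 19 H2b, 12 H3 and 13 H4, and 1 of the H2b genes, Hist3h2bb-ps, is named as a pseudogene. By the annotation 56 lay in the Hist1 cluster on chromosome 13, 10 in the Hist2 cluster on chromosome 3, 3 in the Hist3 cluster on chromosome 11, and Hist4h4 on chromosome 6.

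RNA was sequenced from Th17 cells, the helper T cells known for interleukin 17. They had been raised in culture from mouse CD4+ CD25- T cells (spleen and lymph nodes, strain C57BL/6). Cells were kept for 96 h with linezolid at 100 µM, with Arg C (argyrin C) at 60 mM, a unit printed as labelled, or with the vehicle DMSO, and both drugs are known to block protein synthesis in mitochondria. A division dye was used to sort CD4+ live cells on day 4 into cycle 2 (1 division), cycle 3 (2 divisions) and cycle 4 (3 or more divisions). The 3 drugs, 3 cycles and 2 experiments gave 18 samples, 6 per drug and 2 per drug and cycle, each the mean of 3 libraries that the labels call technical replicates. All groups share the same strain, the same starting cells (isolated at about 90% purity) and the same cytokine mixture, and the labels describe neither the animals nor the number of cultures in each experiment. The cycles are fractions sorted from the same cultures, so a drug had 2 independent units and the errors of comparisons over all cycles may be too small. No prefix of the deposited column names occurs in both experiments, and the labels do not say what the prefix stands for. This and whatever else differed between the experiments cannot be told apart from experiment.

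Replication-dependent histone genes supply the bulk of the H1, H2A, H2B, H3 and H4 protein that packs newly made DNA, and in cycling cells their mRNAs accumulate in S phase and are degraded when it ends. Unlike other mRNAs of animals, most end in a conserved stem-loop and carry no poly(A) tail. The stem-loop is bound by the protein made from Slbp, and transcription depends on Npat, a target of cyclin E and Cdk2. The library kit is not given in the sources used here, so it is not known whether RNA without a poly(A) tail was captured.

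The stem-loop was sought on the sense strand of the GENCODE vM21 transcripts as 16 bases, namely GGC, any base, CTTTT, any base, AG, any base and GCC. It was found in 42 of the 70 histone genes and in 47 of 55341 annotated genes in all, 0.0849%. Of the 28 histone genes without it, 12 have only transcripts annotated from start to stop codon, which cannot hold it. The most frequent form, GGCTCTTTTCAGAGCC, was in 26 histone genes, and the form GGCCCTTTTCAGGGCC in 7. The stem-loops of 6 genes on whose values the results turn follow, in capitals between 5 flanking bases on each side. The annotated transcripts run on after it, by 35 bases for Hist2h2aa1, 74 for Hist1h3c and 169 for Hist3h2ba. For Hist1h4i it was 330 bases, for Hist1h1c 840 and for Hist3h2a 1643. Hist3h2ba, which rose, and Hist2h2aa1 and Hist3h2a, which fell, carried the same 16 bases.
Hist1h3c: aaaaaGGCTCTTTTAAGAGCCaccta
Hist1h4i: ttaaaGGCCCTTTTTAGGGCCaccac
Hist3h2ba: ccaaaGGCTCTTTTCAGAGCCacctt
Hist2h2aa1: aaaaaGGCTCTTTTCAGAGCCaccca
Hist3h2a: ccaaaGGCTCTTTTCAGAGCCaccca
Hist1h1c: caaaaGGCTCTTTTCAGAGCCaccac

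Promoters from RefSeq (GRCm38.p6, 250 bases before to 50 after the start) were matched for 61 of the 70 genes. CCAAT, on either strand, was in 85.2% of them against 37.4% of all 32851 promoters of that length. TATAAA on either strand was in 57.4% against 13.6%, and ATTTGCAT on either strand in 21.3% against 1.74%. CCAAT was in every matched H1, H2a, H2b and H3 promoter but in 3 of 12 H4 promoters, and ATTTGCAT was in 7 of 17 H2a and 6 of 16 H2b promoters and in none of the others. No match of these motifs overlapped a match of another in the promoters of histone genes. The bases before the start are shown, on the strand of the gene and at most 250, for the H3, H4 and H2b genes with the largest rises with Arg C and for the H2a gene with the largest fall, with the motifs in capitals. The windows are chr13:23745603-23745771 (minus strand) for Hist1h3c, chr13:22041363-22041612 (minus strand) for Hist1h4i, chr11:58948661-58948910 (plus strand) for Hist3h2ba and chr3:96245247-96245496 (plus strand) for Hist2h2aa1. The window of Hist1h3c is 169 bases long, because its GENCODE model begins 81 bases before the RefSeq start. CCAAT or its complement occurs 4 times in the window of Hist1h3c, 4 times in that of Hist3h2ba, 2 times in that of Hist2h2aa1 and 0 times in that of Hist1h4i.
Hist1h3c: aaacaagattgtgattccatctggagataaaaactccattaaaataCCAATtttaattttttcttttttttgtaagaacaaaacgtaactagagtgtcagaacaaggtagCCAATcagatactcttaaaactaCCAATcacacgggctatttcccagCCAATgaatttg
Hist1h4i: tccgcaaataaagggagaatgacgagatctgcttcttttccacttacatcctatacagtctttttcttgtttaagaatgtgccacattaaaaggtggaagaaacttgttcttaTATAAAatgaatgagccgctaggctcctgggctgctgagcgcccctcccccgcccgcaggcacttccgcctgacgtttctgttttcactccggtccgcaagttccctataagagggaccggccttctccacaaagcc
Hist3h2ba: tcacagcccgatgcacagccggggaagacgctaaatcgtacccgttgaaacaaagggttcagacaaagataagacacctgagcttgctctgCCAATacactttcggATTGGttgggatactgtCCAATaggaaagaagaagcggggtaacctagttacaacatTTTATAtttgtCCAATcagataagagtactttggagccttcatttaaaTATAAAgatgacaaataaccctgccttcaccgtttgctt
Hist2h2aa1: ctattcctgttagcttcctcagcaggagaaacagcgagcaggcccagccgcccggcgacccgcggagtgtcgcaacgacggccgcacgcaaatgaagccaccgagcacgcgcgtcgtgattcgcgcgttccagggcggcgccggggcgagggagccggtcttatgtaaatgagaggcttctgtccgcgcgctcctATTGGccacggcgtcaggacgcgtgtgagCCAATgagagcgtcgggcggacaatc

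Most histone genes were detected at very low levels. Levels are given in RPKM, that is, reads divided by the length of the gene model in kilobases and by the library's total in M reads. A sample, with its 3 libraries together, held 24.3 to 36.9 M reads. At least 1 read was found for 65 of the 70 genes, at least 10 reads over all libraries for 60, and a value above 0 in all 18 samples for 23. The 5 genes at 0 in every library were Hist1h2aj, Hist2h3c1 and 3 genes known as testis variants, Hist1h1t, Hist1h2ba and Hist1h2aa. By type, reads were found for 5 of 6 H1, 18 of 20 H2a, 18 of 19 H2b, 11 of 12 H3 and all 13 H4 genes. The mean over the 18 samples reached 1 RPKM in 11 genes, and the median of the 65 genes' means was 0.276 RPKM. In total 14949 reads fell in the 70 genes, 18.7 to 49.1 per M reads of a sample, and 6 genes held 48.6% of them. By contrast, the replication-independent variant H3f3a, whose mRNA has a poly(A) tail, had 277 ± 23.3 RPKM in DMSO (SD, n = 6). H2afz, which encodes the variant H2A.Z, had 84.1 ± 9.51 RPKM in DMSO (SD, n = 6).

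Near-identical copies limit what a single gene's value means. More than 50% of the 50-base words of the transcript were shared with another histone gene in 32 of the 70 genes, and 6 genes shared none. For Hist2h2aa1 the share was 89.2%, mostly with its copy Hist2h2aa2, which had 11 reads in all, against 1470 for Hist2h2aa1. For Hist1h3c it was 47.0%, for Hist1h4i 28.9%, for Hist3h2ba 22.1% and for Hist3h2a 2.00%. How the authors' counting split shared reads is not given in the sources used here. Models of other genes overlap Hist2h2aa1 (Gm20633, Gm20634 and Gm47313), Hist3h2a (Trim17 and Gm44313) and Hist1h1e (Hist1h2be and Gm11398), and the strand setting is also not given, so reads of these pairs may be mixed. Trim17 itself ranged from 0.215 to 0.419 RPKM in DMSO, from 0.0654 to 0.188 with Arg C and from 0.0631 to 0.214 with linezolid.

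The cells carried T helper markers throughout. The summed level of 9 T helper markers, among them Cd4, Cd3e and Il17a, ranged from 946 to 1260 RPKM in DMSO, 658 to 839 with Arg C and 771 to 1050 with linezolid. The Cd8a and Cd8b1 sum was at most 9.54 RPKM, the sum of 4 B cell markers at most 3.43, and those of 5 myeloid and dendritic, 2 natural killer and 3 erythroid markers at most 0.15. The part of these shifts in the results below was not tested. In these bulk samples fewer cells in S phase and less histone mRNA per cell cannot be told apart.

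The H2b, H3 and H4 sums were higher with Arg C than with DMSO, over both experiments mostly through 1 gene each, the H2a sum was lower at this scaling, and the H1 sum split by experiment. These sums of RPKM over the members of a type are descriptions with no test. For H3 the 6 DMSO samples held 2.25 to 4.84 RPKM (median 2.93), the Arg C samples 6.24 to 12.9 (median 7.89) and the linezolid samples 4.93 to 7.22 (median 6.04). Both drugs were thus above every DMSO sample for H3. The H2b sum was 6.75 to 8.45 RPKM in DMSO (median 7.20), 9.12 to 18.7 with Arg C (median 11.8) and 7.74 to 13.3 with linezolid (median 9.44). The H4 sum was 5.35 to 12.0 RPKM in DMSO (median 7.58), 9.38 to 19.3 with Arg C (median 14.7) and 6.89 to 10.0 with linezolid (median 8.71). Arg C lay above DMSO at the same cycle and experiment in 6 of 6 pairs for H2b, H3 and H4, although the ranges of H4 overlapped. Linezolid did so in 6 of 6 pairs for H2b and H3 and in 4 of 6 for H4. Without Hist1h3c the H3 ranges overlapped, at 1.91 to 4.51 RPKM in DMSO, 2.64 to 7.45 with Arg C and 2.54 to 5.45 with linezolid. Without Hist3h2ba the H2b mean was 5.25 ± 0.27 RPKM in DMSO, 6.89 ± 2.67 with Arg C and 6.51 ± 1.45 with linezolid (SD, n = 6), and in experiment 1 it was 5.37 in DMSO and 5.27 with Arg C. Without Hist1h4i the H4 mean was 4.81 ± 1.85 RPKM in DMSO, 5.44 ± 2.88 with Arg C and 3.53 ± 0.733 with linezolid (SD, n = 6). Over both experiments most of the excess of Arg C over DMSO in these 3 sums was thus that of the genes left out. The H2a sum was 12.1 to 22.8 RPKM in DMSO (median 16.1), 6.07 to 14.2 with Arg C (median 9.51) and 6.57 to 12.3 with linezolid (median 8.99). Arg C lay above DMSO in 1 of 6 pairs and linezolid in 0 of 6. When each sample was rescaled by the median ratio to other samples (median-ratio scaling), the H2a mean was 13.0 ± 3.23 RPKM in DMSO, 12.5 ± 3.62 with Arg C and 8.88 ± 1.91 with linezolid (SD, n = 6). In experiment 2 it was then 10.5 in DMSO and 14.1 with Arg C, so the direction of the H2a sum with Arg C depended on the scaling. Hist2h2aa1 made up most of the H2a sum in DMSO, and without it the H2a mean was 6.19 ± 1.59 RPKM in DMSO, 7.83 ± 2.89 with Arg C and 7.03 ± 1.80 with linezolid (SD, n = 6). With all types together the sum was 42.3 ± 10.8 RPKM in DMSO, 55.7 ± 19.8 with Arg C and 39.9 ± 7.20 with linezolid (SD, n = 6), differences within the spread of the samples at this scaling. Under median-ratio scaling it was 33.9 ± 8.69 RPKM in DMSO (25.2 to 48.5), 69.8 ± 21.3 with Arg C (47.6 to 97.6) and 39.2 ± 6.08 with linezolid (SD, n = 6), so the Arg C and DMSO ranges then overlapped only between 47.6 and 48.5 RPKM.

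**Figure D1:**
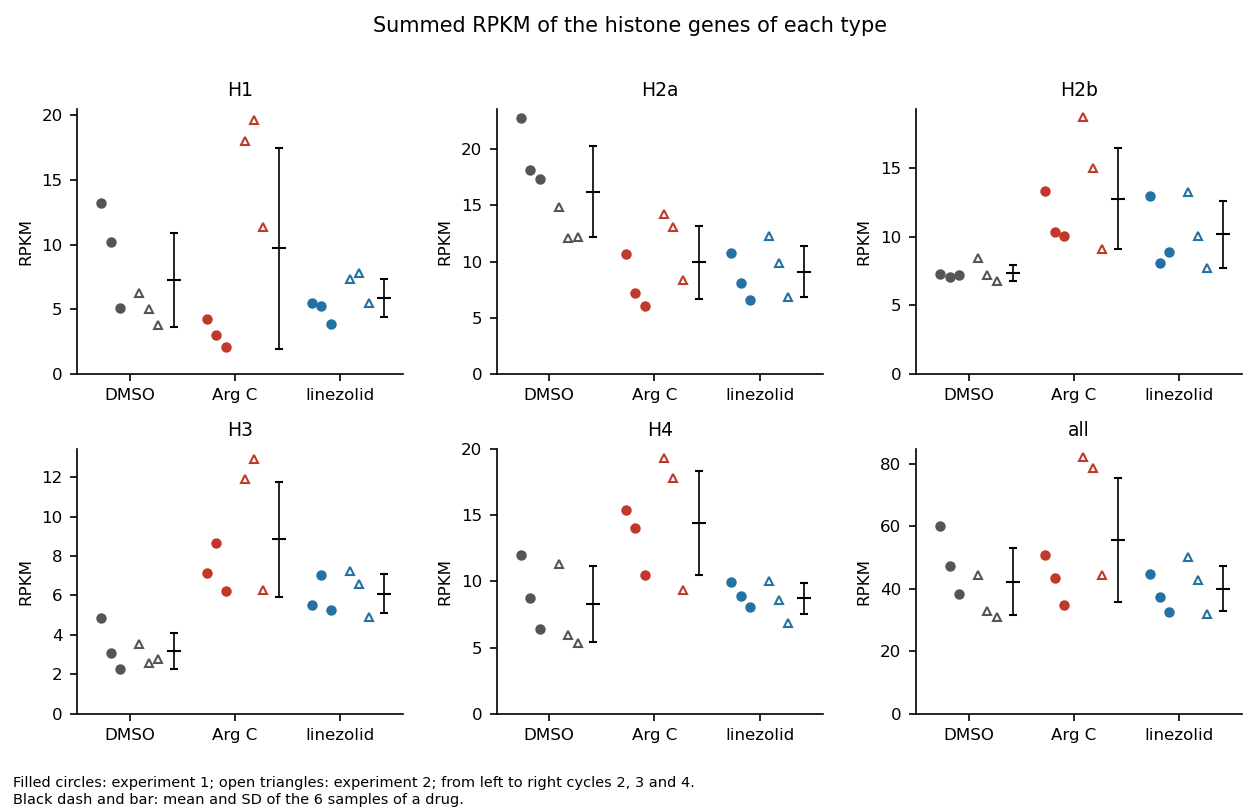
Summed RPKM of the histone genes of each type and of all 70 genes (vertical axes) in the 18 samples by drug, filled circles for experiment 1 and open triangles for experiment 2, from left to right cycles 2, 3 and 4, with the mean and SD of the 6 samples of a drug in black. The H3 sums of all Arg C and linezolid samples lie above the highest DMSO sample at 4.84 RPKM, and the H1 sums of Arg C fall into experiment 1 (2.06 to 4.21 RPKM) and experiment 2 (11.4 to 19.6 RPKM).

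Genes were tested with limma on log2(RPKM + 1), and since most histone genes lie near or below 1 RPKM the added 1 shrinks their changes. The filter of at least 0.5 RPKM in at least 2 samples left 36 of the 70 histone genes among 11004 genes, namely 5 H1, 10 H2a, 7 H2b, 6 H3 and 8 H4. Of these, 7 passed it only through Arg C samples and so were selected for high values there, and none only through DMSO or linezolid. Counts below include these 7 genes, so the filter itself favours calls higher with Arg C. Single genes named below with levels near or under 0.5 RPKM may be among the 7, and their rises with Arg C carry the same limit. The counts describe the 36 tested genes and give no support for a direction of all histone genes. With Arg C against DMSO, 15 of the 36 were called higher and 3 lower at an adjusted p under 0.05. Over all genes tested 16.5% were called higher and 70.0% lower, and the median log2 change was 0.25 for the histone genes and -0.47 for all genes. Median-ratio scaling moved the median of all genes to 0.01 and gave 22 histone genes higher and 2 lower, beside 41.8% and 41.4% of all genes. By type, 4 of 6 H3, 5 of 10 H2a, 4 of 7 H2b, 2 of 8 H4 and 0 of 5 H1 genes were called higher.

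**Figure D2:**
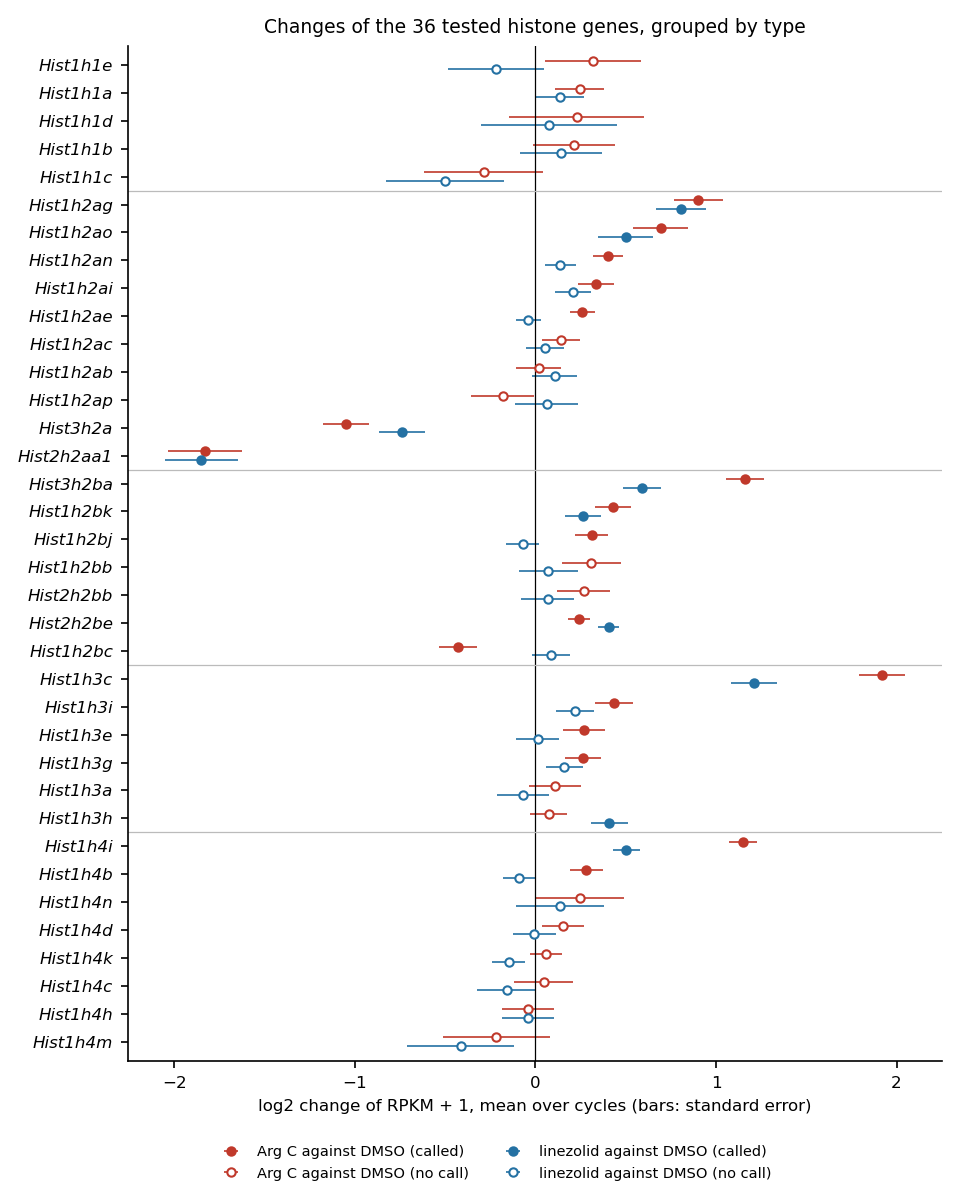
Log2 change of RPKM + 1 against DMSO, as the mean over the 3 cycles (horizontal axis; bars are standard errors), for the 36 tested histone genes grouped by type, in red for Arg C and in blue for linezolid, with filled points for adjusted p under 0.05. Hist1h3c lies farthest to the right for both drugs (1.92 and 1.21) and Hist2h2aa1 farthest to the left (-1.83 and -1.85).

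Hist1h3c, an H3 gene on chromosome 13 (GRCm38, chr13:23744973-23745602), rose most. It was between 0.189 and 0.643 RPKM in the 6 DMSO samples (median 0.38), between 3.15 and 6.16 with Arg C (median 4.03) and between 1.26 and 3.93 with linezolid (median 2.05). No sample of either drug reached down to the DMSO range, while the 2 drugs overlapped each other. The log2 change was 1.92 ± 0.13 with Arg C (SE; adjusted p = 1.55e-08) and 1.21 ± 0.13 with linezolid (adjusted p = 2.36e-06), higher in 6 of 6 pairs for each. On the recovered reads, where no pseudocount of 1 RPKM enters, limma-voom gave 3.39 for Arg C and 2.42 for linezolid. The other H3 genes with means near or above 0.5 RPKM moved less. Hist1h3i was 0.321 ± 0.28 RPKM in DMSO and 0.78 ± 0.345 with Arg C (SD, n = 6), a log2 rise of 0.44 ± 0.10 (SE; adjusted p = 0.00164), and Hist1h3e rose by 0.27 ± 0.12 (adjusted p = 0.0470), a call lost in 17 of 32 alternatives (adjusted p 0.000126 to 0.923). Hist1h3a had a log2 change of 0.11 ± 0.14 with Arg C (adjusted p = 0.494) and was not called.

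Hist1h4i, an H4 gene (chr13:22040636-22041362), had the highest mean of all 70 genes, 5.88 RPKM over the 18 samples. It was between 2.34 and 5.60 RPKM in DMSO (median 2.91), between 5.31 and 12.0 with Arg C (median 9.44) and between 4.40 and 6.08 with linezolid (median 5.20). Only the lowest Arg C sample, cycle 4 of experiment 2, lay below the highest DMSO sample, cycle 2 of experiment 2. The log2 change was 1.15 ± 0.08 with Arg C (SE; adjusted p = 1.51e-08) and 0.50 ± 0.08 with linezolid (adjusted p = 5.66e-05). The other H4 genes stayed below 1 RPKM on average. Hist1h4b, with 0.234 ± 0.242 RPKM in DMSO and 0.495 ± 0.255 with Arg C (SD, n = 6), rose by 0.28 ± 0.09 (SE; adjusted p = 0.0109). Its Arg C mean lay near the filter's 0.5 RPKM, so it may have entered the test only through Arg C samples. Hist1h4m, Hist1h4d and Hist1h4c had log2 changes of -0.22 ± 0.30, 0.15 ± 0.12 and 0.05 ± 0.16 with Arg C (SE) and were not called.

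Hist3h2ba, an H2b gene of the small Hist3 cluster (chr11:58948920-58949533), was between 1.57 and 3.27 RPKM in DMSO (median 1.87), between 3.70 and 7.50 with Arg C (median 6.12) and between 2.42 and 5.36 with linezolid (median 3.58). Every Arg C sample lay above every DMSO sample, and linezolid overlapped both. The log2 change was 1.16 ± 0.11 with Arg C (SE; adjusted p = 3.1e-07) and 0.59 ± 0.11 with linezolid (adjusted p = 0.000242), higher in 6 of 6 pairs for each. Hist2h2be was 0.572 ± 0.0997 RPKM in DMSO, 0.886 ± 0.396 with Arg C and 1.11 ± 0.406 with linezolid (SD, n = 6), log2 rises of 0.24 ± 0.06 and 0.41 ± 0.06 (SE; adjusted p = 0.002 and 4.44e-05). Hist1h2bk rose by 0.43 ± 0.10 with Arg C (adjusted p = 0.00144) and by 0.26 ± 0.10 with linezolid (adjusted p = 0.0316, a call lost in 14 of 31 alternatives, range 0.00346 to 0.28). Hist1h2bc was the H2b gene that went the other way with Arg C. It was between 2.76 and 3.54 RPKM in DMSO (median 2.91), between 1.18 and 3.14 with Arg C (median 1.91) and between 2.47 and 4.41 with linezolid (median 3.07). Its log2 change with Arg C was -0.43 ± 0.11 (SE; adjusted p = 0.00197) but 0.04 under median-ratio scaling (adjusted p = 0.749), so its fall depended on the scaling.

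**Figure D3:**
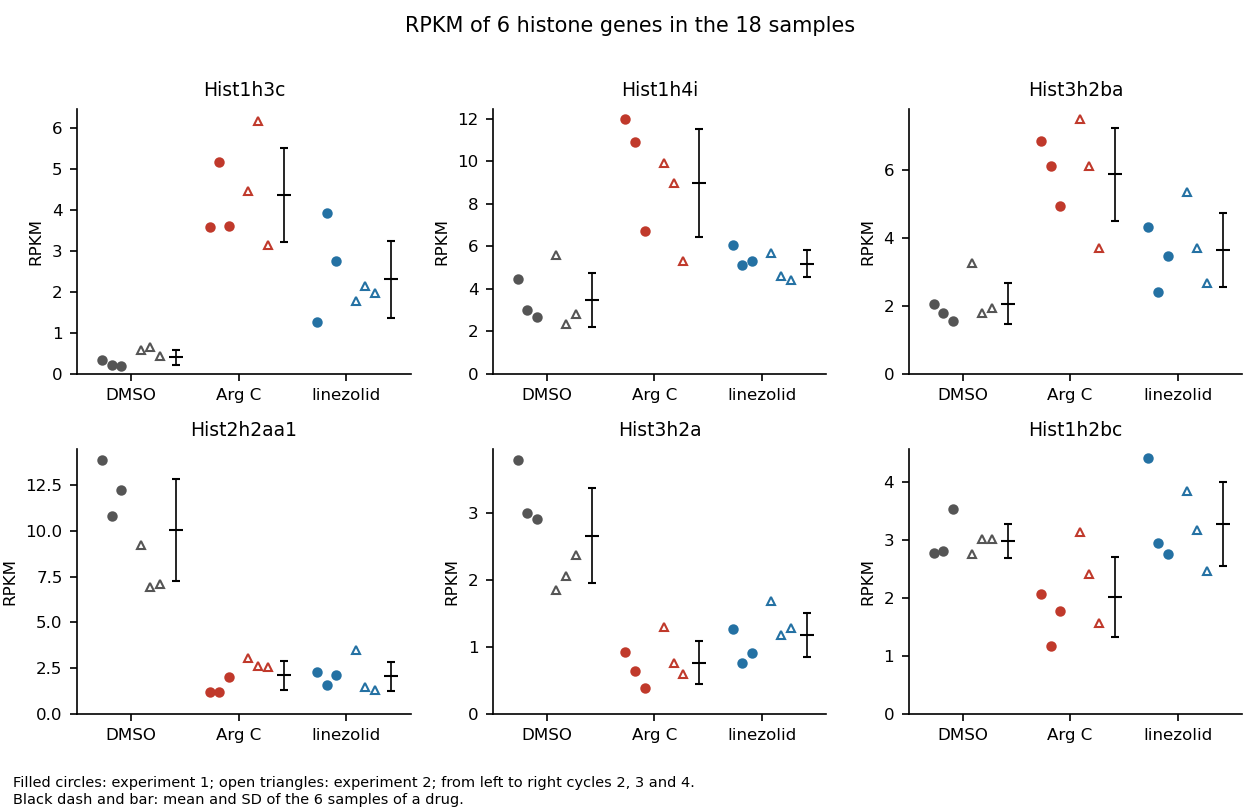
RPKM (vertical axes) of 6 histone genes in the 18 samples by drug, filled circles for experiment 1 and open triangles for experiment 2, from left to right cycles 2, 3 and 4, with the mean and SD of the 6 samples of a drug in black. Hist1h3c and Hist3h2ba are higher in every Arg C than in every DMSO sample, Hist2h2aa1 and Hist3h2a are lower in every sample of either drug than in any DMSO sample, and Hist1h2bc is lower with Arg C at this scaling but changed by 0.04 on the log2 scale under median-ratio scaling.

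The 2 H2a genes with the highest levels in DMSO fell with both drugs, while Hist1h2ag and Hist1h2ao, low in DMSO, rose. Hist2h2aa1 (chr3:96245497-96246082) was between 6.96 and 13.8 RPKM in DMSO (median 10.0), between 1.17 and 3.05 with Arg C (median 2.27) and between 1.29 and 3.50 with linezolid (median 1.86). The DMSO samples did not overlap those of either drug, and the drugs overlapped each other. The log2 change was -1.83 ± 0.20 with Arg C (SE; adjusted p = 1.97e-06) and -1.85 ± 0.20 with linezolid (adjusted p = 3.43e-06), lower in 6 of 6 pairs for each. Hist3h2a (chr11:58954685-58956830), which lies near Hist3h2ba on the same strand, was between 1.85 and 3.79 RPKM in DMSO (median 2.63), between 0.384 and 1.30 with Arg C (median 0.697) and between 0.757 and 1.68 with linezolid (median 1.22). It was lower in every drug sample than in any DMSO sample, with log2 changes of -1.05 ± 0.13 (SE; adjusted p = 5.27e-06) and -0.74 ± 0.13 (adjusted p = 0.000187), while its neighbour Hist3h2ba rose. These falls remained under median-ratio scaling, at -1.32 and -0.67 with Arg C for Hist2h2aa1 and Hist3h2a.

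Hist1h2ag was between 0 and 0.437 RPKM in DMSO (median 0.20), between 0.14 and 2.71 with Arg C (median 1.58) and between 0.497 and 1.88 with linezolid (median 1.06). All linezolid samples were above all DMSO samples, and the lowest Arg C sample, cycle 4 of experiment 2, lay within the DMSO range. Its log2 change was 0.90 ± 0.14 with Arg C (SE; adjusted p = 3.84e-05) and 0.81 ± 0.14 with linezolid (adjusted p = 0.000158). Hist1h2ao rose by 0.70 ± 0.15 and 0.50 ± 0.15 (SE; adjusted p = 0.000824 and 0.00954), and Hist1h2ai, at 1.40 ± 0.493 RPKM in DMSO and 2.14 ± 1.17 with Arg C (SD, n = 6), by 0.33 ± 0.10 with Arg C (SE; adjusted p = 0.00757). Hist1h2bj, an H2b gene read in the opposite direction, lies 270 bp from Hist1h2ag. Hist1h2bj rose by 0.31 ± 0.09 with Arg C (SE; adjusted p = 0.00597) and had a log2 change of -0.07 ± 0.09 with linezolid (adjusted p = 0.494). Both genes of such a head-to-head pair were tested in only 1 other case, Hist1h2ac and Hist1h2bc, 251 bp apart, with changes of 0.14 and -0.43 with Arg C.

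Of the linker histone genes, Hist1h1c, Hist1h1d and Hist1h1b were called lower with Arg C in experiment 1 and higher in experiment 2. None of the 5 tested H1 genes was called over both experiments together, with log2 changes from -0.29 ± 0.33 for Hist1h1c to 0.32 ± 0.27 for Hist1h1e (SE, limma; 0 at an unadjusted p under 0.05). Under median-ratio scaling Hist1h1e and Hist1h1a were called higher, by 0.76 and 0.43 (adjusted p = 0.0134 and 0.00942), and the change of Hist1h1c was 0.12. The drug effect was therefore fitted within each experiment, a step added after the data were seen. Within an experiment the 3 samples of a drug are cycle fractions of the same cultures, so each drug is 1 independent unit there and the SE and p of these changes and of their differences may be too small. In experiment 1 Hist1h1c was 4.96, 3.58 and 2.08 RPKM in cycles 2, 3 and 4 with DMSO, 0.92, 0.45 and 0.718 with Arg C and 1.41, 0.795 and 0.992 with linezolid. In experiment 2 it was 2.25, 1.61 and 1.28 RPKM with DMSO, 3.35, 4.80 and 3.10 with Arg C and 2.27, 2.13 and 1.29 with linezolid. The Arg C samples thus lay below all DMSO samples in experiment 1 and above all of them in experiment 2. The log2 change with Arg C was -1.38 ± 0.17 in experiment 1 (SE; adjusted p = 1.91e-06) and 0.81 ± 0.17 in experiment 2 (adjusted p = 0.000471), a difference of 2.18 ± 0.24 (adjusted p = 0.000294).

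Hist1h1d showed the same order. In experiment 1 it was 3.13, 2.86 and 1.24 RPKM with DMSO and 1.01, 0.502 and 0.336 with Arg C, and in experiment 2 it was 1.34, 1.34 and 0.575 with DMSO and 5.84, 5.80 and 3.25 with Arg C. The log2 change was -1.05 ± 0.13 and then 1.51 ± 0.13 (SE; adjusted p = 1.54e-06 and 5.19e-08), a difference of 2.55 ± 0.18 (adjusted p = 6.9e-06). For Hist1h1e the changes were -0.54 ± 0.16 and 1.18 ± 0.16 (adjusted p = 0.00673 and 1e-05), and for Hist1h1b -0.52 ± 0.15 and 0.94 ± 0.15 (adjusted p = 0.00425 and 3.32e-05). Hist1h1a was not called in experiment 1 (-0.10 ± 0.13, adjusted p = 0.447) and rose by 0.59 ± 0.13 in experiment 2 (adjusted p = 0.000537). Under median-ratio scaling the difference between experiments was still called for all 5, between 0.71 for Hist1h1a and 2.51 for Hist1h1d, but the change of Hist1h1e in experiment 1 was then -0.05 (adjusted p = 0.806). In experiment 1 Hist1h1c, Hist1h1d and Hist1h1b were then still called lower, at -0.94, -0.65 and -0.38, and in experiment 2 higher, at 1.18, 1.86 and 1.12. With linezolid the same difference was called for 3 of the 5 (for Hist1h1c and Hist1h1d alone under median-ratio scaling), at 1.19 ± 0.24 for Hist1h1c, 0.88 ± 0.18 for Hist1h1d and 0.70 ± 0.21 for Hist1h1b (SE; adjusted p = 0.00498, 0.00508 and 0.0249).

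**Figure D4:**
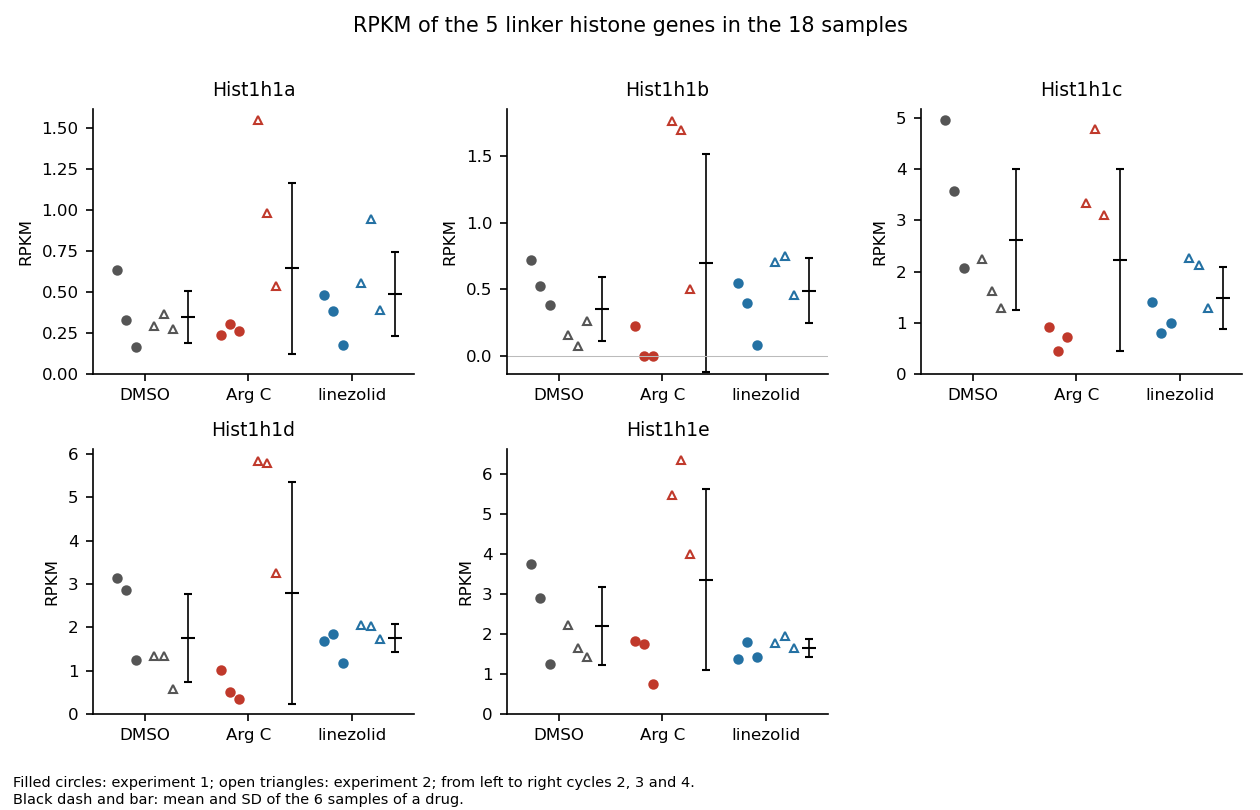
RPKM (vertical axes) of the 5 linker histone genes in the 18 samples by drug, filled circles for experiment 1 and open triangles for experiment 2, from left to right cycles 2, 3 and 4, with the mean and SD of the 6 samples of a drug in black. For Hist1h1c, Hist1h1d and Hist1h1b every Arg C sample of experiment 1 lies below, and every one of experiment 2 above, all DMSO samples of the same experiment.

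Over all 36 tested histone genes, Arg C in experiment 1 gave 7 called higher and 7 lower, beside 14.3% and 69.7% of all genes, and in experiment 2 it gave 21 higher and 2 lower, beside 14.5% and 64.1%. Under median-ratio scaling the counts were 14 higher and 5 lower, beside 39.9% and 39.5%, and 27 higher and 2 lower, beside 37.2% and 36.9%. The difference between the experiments was called higher in experiment 2 for 13 histone genes and lower for 0 (0 also at an unadjusted p under 0.05, limma), beside 16.1% and 2.32% of all genes. The filter may favour this direction for Arg C, since 7 of the 36 genes passed it only through Arg C samples. For linezolid the difference was called higher for 6 and lower for 0 (0 also unadjusted), beside 24.4% and 3.3%. Under median-ratio scaling these differences were called for 9 and 3 histone genes, all higher in experiment 2, beside 4.72% higher and 7.39% lower and then 6.92% higher and 10.5% lower of all genes. With linezolid experiment 1 gave 7 histone genes higher and 6 lower, beside 17.6% and 58.2% of all genes, and experiment 2 gave 10 higher and 2 lower, beside 20.5% and 41.3%. Median-ratio scaling gave 9 higher and 3 lower in experiment 1, beside 36.2% and 35.0%, and 11 higher and 1 lower in experiment 2, beside 30.8% and 29.7%. The falls of Hist2h2aa1 and Hist3h2a held in both experiments but were smaller in experiment 2. With Arg C they were -2.45 ± 0.17 and -1.37 ± 0.11 in experiment 1 and -1.22 ± 0.17 and -0.73 ± 0.11 in experiment 2 (SE). By contrast, the difference between experiments was called for 0 of the 20 genes listed as replication genes with Arg C, whose median difference was -0.02. With linezolid it was called for 1 of the 20, lower in experiment 2, with a median of 0.05. Under median-ratio scaling 3 of them were called lower with linezolid. The experiments themselves, over all drugs, gave no called difference for any of the 36 genes (limma; 5 higher and 0 lower in experiment 2 at an unadjusted p under 0.05; 1 higher with limma-voom; 3 higher without DMSO cycle 2 of either experiment), beside 28.5% and 4.72% of all genes, and under median-ratio scaling 0 were higher and 1 lower, beside 10.3% and 10.4%.

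With linezolid against DMSO, 8 of the 36 histone genes were called higher and 2 lower, beside 21.0% and 54.5% of all genes. The median log2 change was 0.07 for the histone genes and -0.21 for all genes, and median-ratio scaling gave 11 higher and 2 lower, beside 38.0% and 36.3%. The 8 were 2 H3 genes (Hist1h3c and Hist1h3h), 2 H2a (Hist1h2ag and Hist1h2ao), 3 H2b (Hist3h2ba, Hist2h2be and Hist1h2bk) and Hist1h4i, and the 2 were Hist2h2aa1 and Hist3h2a. Hist1h3h was the only called rise that Arg C did not share. It was between 0.0616 and 0.434 RPKM in DMSO (median 0.304), between 0.0703 and 0.731 with Arg C (median 0.384) and between 0.253 and 1.15 with linezolid (median 0.66), ranges that all overlap. Its log2 change was 0.41 ± 0.10 with linezolid (SE; adjusted p = 0.00256) and 0.07 ± 0.10 with Arg C (adjusted p = 0.503). The comparisons of the 2 drugs with DMSO share their control samples.

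Within single cycles the drug effects rest on 2 samples against 2, with the spread pooled over all groups. With Arg C 8, 8 and 7 of the 36 genes were called higher in cycles 2, 3 and 4, beside 12.9%, 14.1% and 11.7% of all genes, and 2, 3 and 3 were lower, beside 62.7%, 63.0% and 63.5%. With linezolid 5, 7 and 5 were higher, beside 15.7%, 15.4% and 14.0%, and 3, 2 and 2 were lower, beside 37.1%, 46.0% and 44.3%. Hist1h3c and Hist3h2ba were called higher, and Hist2h2aa1 and Hist3h2a lower, in every cycle with both drugs. For Hist1h3c the log2 change with Arg C was 1.79, 2.23 and 1.74 in cycles 2, 3 and 4 (SE 0.22 each), and with linezolid it was 0.79, 1.48 and 1.35. Hist1h4i was called higher with Arg C in every cycle (0.99, 1.58 and 0.89, SE 0.13 each) and with linezolid in cycles 3 and 4 but not in cycle 2 (0.20 ± 0.13, adjusted p = 0.227). Hist1h2ai was called higher in cycle 2, by 0.91 ± 0.18 with Arg C and 0.73 ± 0.18 with linezolid (SE; adjusted p = 0.00046 and 0.004), and had log2 changes of 0.06 and 0.09 in cycle 4. The difference between its Arg C effects in cycles 4 and 2, -0.85 ± 0.25, did not pass the test (adjusted p = 0.0572).

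The drugs were also set against each other, at labelled doses that differ. With Arg C against linezolid 7 histone genes were called higher and 4 lower, beside 7.64% and 59.8% of all genes, and under median-ratio scaling 15 were higher and 1 lower, beside 32.1% and 29.5%. Without Arg C cycle 3 of experiment 1, 13 were higher and 2 lower, and 2 were lower without Arg C cycle 2 of experiment 1, Arg C cycle 4 of experiment 2, linezolid cycle 2 of experiment 2 or linezolid cycle 4 of experiment 2. Hist1h3c, Hist1h4i and Hist3h2ba were higher with Arg C by 0.72 ± 0.13, 0.65 ± 0.08 and 0.57 ± 0.11 on the log2 scale (SE; adjusted p = 0.000327, 1.65e-05 and 0.000466). Their medians were 4.03, 9.44 and 6.12 RPKM with Arg C and 2.05, 5.20 and 3.58 with linezolid, so for each of the 3 genes the linezolid median lay between those of DMSO and Arg C. Hist1h2bc was lower with Arg C by -0.51 ± 0.11 (adjusted p = 0.000926; -0.26 under median-ratio scaling) and in 6 of 6 pairs. Hist1h3h was also lower, by -0.34 ± 0.10 (adjusted p = 0.0103), but at -0.23 it was not called under median-ratio scaling (adjusted p = 0.0709). The call for Hist3h2a (-0.31 ± 0.13, adjusted p = 0.0493) was lost in 18 of 32 alternatives (adjusted p 0.00639 to 0.267). For Hist2h2aa1 the difference was 0.02 ± 0.20 (adjusted p = 0.934).

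Summed histone levels were lower in cycle 4 than in cycle 2, a description with no test. The sum of every type was lower in cycle 4 than in cycle 2 in 6 of 6 pairs of the same drug and experiment. For all 70 genes the sum went from 60.1 to 38.3 RPKM and from 44.4 to 30.9 in DMSO, from 50.7 to 34.9 and from 82.1 to 44.5 with Arg C, and from 44.6 to 32.6 and from 50.2 to 31.9 with linezolid, in experiments 1 and 2. Cycle 3 did not always lie between. From cycle 2 to cycle 3 the mean H3 sum went from 9.52 to 10.8 RPKM with Arg C and from 6.36 to 6.83 with linezolid, and the mean H1 sum with Arg C from 11.1 to 11.3 (n = 2 each). Of the 36 tested genes 0 were called higher in cycle 4 (0 also at an unadjusted p under 0.05 in limma and 0 called with limma-voom) and 9 lower, beside 24.2% and 23.0% of all genes, so the share called lower was near that of all genes. Without Arg C cycle 2 of experiment 1, 14 were lower. The median log2 change was -0.24 for the histone genes and -0.01 for all genes.

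Hist1h2ai, an H2a gene, was 3.27 and 2.56 RPKM in cycle 2 and 1.48 and 0.801 in cycle 4 with linezolid, 4.10 and 2.85 against 1.16 and 0.978 with Arg C, and 1.13 and 1.62 against 1.14 and 0.838 with DMSO, in experiments 1 and 2. Cycle 4 was lower in all but DMSO of experiment 1, with a log2 change over all drugs of -0.74 ± 0.10 (SE; adjusted p = 8.9e-05). Hist1h4i was 12.0 and 9.91 RPKM in cycle 2 and 6.70 and 5.31 in cycle 4 with Arg C, and its log2 change over all drugs was -0.56 ± 0.08 (adjusted p = 8.23e-05). Hist3h2ba and Hist1h3e each changed by -0.52 (SE 0.11 and 0.12; adjusted p = 0.00166 and 0.00302). Hist1h4m had the largest fitted fall, -0.77 ± 0.30 (adjusted p = 0.0478), but it was high in few samples, 3.35 RPKM in cycle 2 of DMSO in experiment 1 and 3.46 in cycle 2 of Arg C in experiment 2, and the call was lost in 22 of 31 alternatives (adjusted p 0.000936 to 0.738). The other called genes were Hist1h2ao (-0.48), Hist1h2ag (-0.44), Hist1h3i (-0.41) and Hist2h2be (-0.36). Hist1h3c, the gene with the largest drug effect, did not follow this course, with a log2 change of 0.02 ± 0.13 between cycles 4 and 2 (adjusted p = 0.912). Within single drugs cycle 4 was called lower than cycle 2 for 1 gene in DMSO (Hist1h4i), 6 with Arg C and 4 with linezolid, beside 3.22%, 13.7% and 17.9% of all genes, and higher for 0 (limma; 0 also at an unadjusted p under 0.05), beside 4.45%, 18.3% and 15.0%. The change from cycle 2 to 4 was not called different from DMSO for any of the 36 genes with Arg C (limma; 0 higher and 4 lower at an unadjusted p under 0.05), beside 4.25% and 3.66% of all genes, or with linezolid (2 higher and 3 lower), beside 2.05% and 3.34%.

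**Figure D5:**
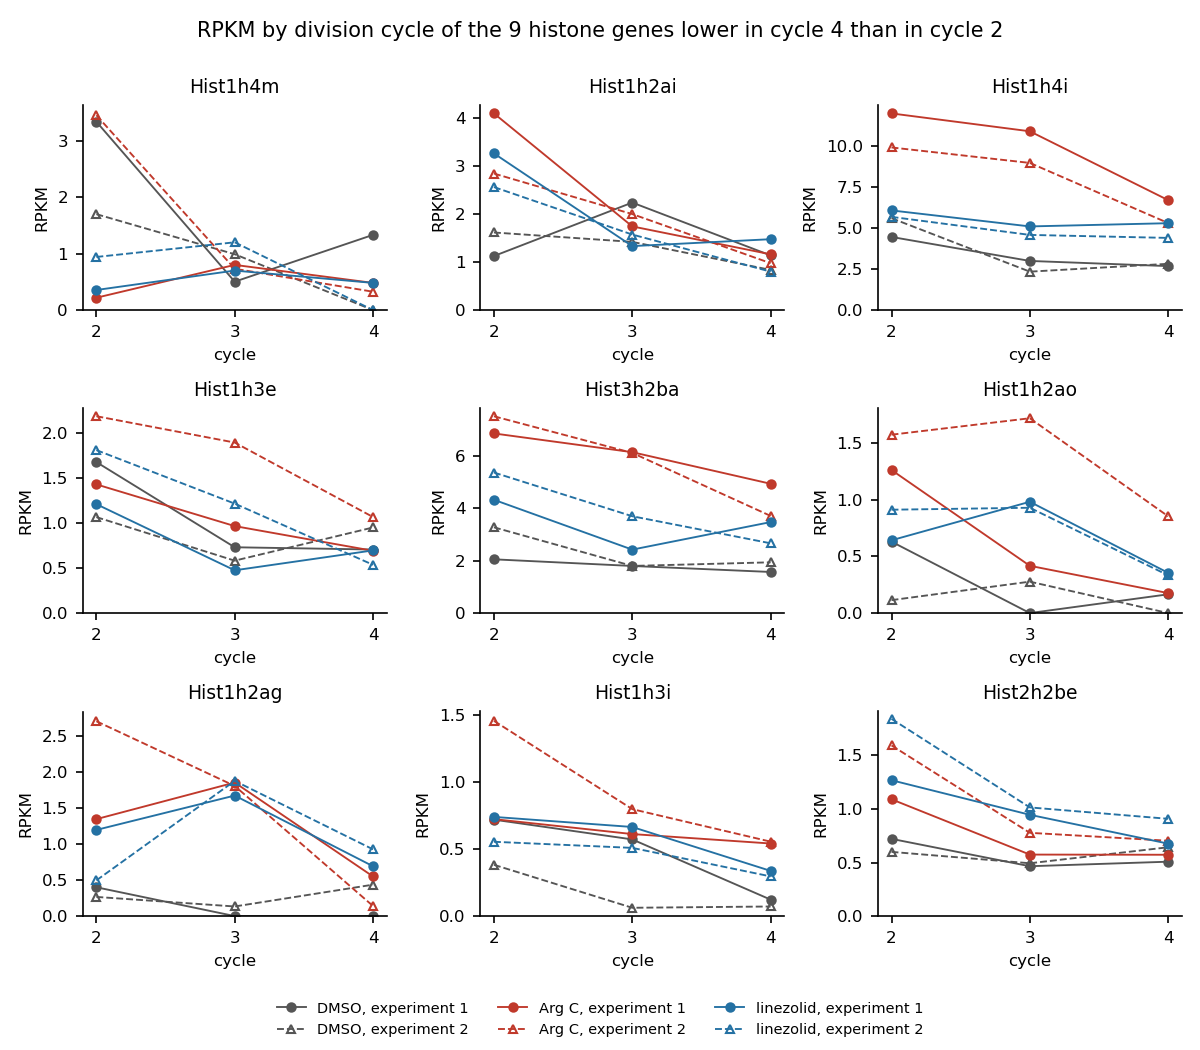
RPKM (vertical axes) against division cycle (horizontal axes) for the 9 histone genes called lower in cycle 4 than in cycle 2, with a line for each drug and experiment, solid with filled circles for experiment 1 and dashed with open triangles for experiment 2. Hist1h4i and Hist3h2ba are lower in cycle 4 than in cycle 2 along all 6 lines, while Hist1h4m starts above 3 RPKM in 2 of its 6 lines.

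The genes that serve histone supply were compared as lists, described by their counts. Over all genes tested 16.5% were called higher and 70.0% lower with Arg C, and 21.0% and 54.5% with linezolid. Under median-ratio scaling these shares were 41.8% and 41.4% with Arg C, and 38.0% and 36.3% with linezolid. All 20 tested genes listed as replication genes were called higher with either drug, with median log2 changes of 0.87 for Arg C and 0.95 for linezolid. Among them were Mcm5 of the replicative helicase, Cdc45 and also Mki67, a marker of dividing cells. All 20 were also called higher under median-ratio scaling. Cdc45 went from 2.86 ± 0.698 RPKM in DMSO to 10.6 ± 2.33 with Arg C and 12.0 ± 2.29 with linezolid (SD, n = 6). Of 25 chaperones and other handlers of new histones 11 were called higher and 9 lower with Arg C (18 and 5 under median-ratio scaling), and 14 and 5 with linezolid. Chaf1a, the large subunit of the chaperone CAF-1 that deposits H3 and H4 at replication forks, rose from 3.47 ± 0.945 RPKM to 7.88 ± 2.01 with Arg C and 10.5 ± 1.96 with linezolid (SD, n = 6), log2 changes of 0.98 ± 0.11 and 1.37 ± 0.11 (SE; adjusted p = 1.85e-06 and 1.81e-07). Asf1b and Nasp, which carry new H3 and H4, rose by 0.89 ± 0.13 and 0.62 ± 0.06 with Arg C (SE; adjusted p = 2.03e-05 and 8.65e-07) and by 1.33 ± 0.13 and 0.81 ± 0.06 with linezolid. Nap1l1, a chaperone of H2A and H2B, rose from 83.3 ± 16.4 to 247 ± 7.66 RPKM with Arg C (SD, n = 6), and its relative Nap1l4 fell from 59.0 ± 1.56 to 24.6 ± 2.99. Under median-ratio scaling the log2 changes with Arg C were 1.52 for Chaf1a, 1.48 for Asf1b, 1.22 for Nasp, 2.24 for Nap1l1 and -0.59 for Nap1l4.

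Of 27 tested genes of histone mRNA synthesis and 3′ processing, 3 were called higher and 17 lower with Arg C. These counts were near the shares over all genes, 16.5% and 70.0%. Under median-ratio scaling 14 were higher and 8 lower, beside 41.8% and 41.4%, so the direction of this list depended on the scaling. With linezolid 8 were higher and 9 lower, beside 21.0% and 54.5%, and 16 and 3 under median-ratio scaling, beside 38.0% and 36.3%. Slbp was 23.6 ± 0.47 RPKM in DMSO, 24.8 ± 4.60 with Arg C and 29.3 ± 3.90 with linezolid (SD, n = 6). Its log2 change was 0.05 ± 0.07 with Arg C (SE; adjusted p = 0.474; 0.69 under median-ratio scaling) and 0.29 ± 0.07 with linezolid (adjusted p = 0.00162). Npat and Casp8ap2, both of the histone locus body, were not called with Arg C (-0.15 ± 0.09 and -0.08 ± 0.08, against 0.40 and 0.46 under median-ratio scaling) and rose with linezolid by 0.44 ± 0.09 and 0.34 ± 0.08 (SE; adjusted p = 0.000684 and 0.00249).

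Of the 10 tested genes listed as replication-independent variants, among them H2afx with its stem-loop, 3 were called higher and 5 lower with Arg C. With linezolid 4 were higher and 4 lower. The shares over all genes were 16.5% and 70.0%, and 21.0% and 54.5%. Under median-ratio scaling the counts were 4 and 5, beside 41.8% and 41.4%, and with linezolid 4 and 3, beside 38.0% and 36.3%. H3f3a and H3f3b, which encode H3.3, fell from 277 ± 23.3 to 134 ± 39.6 RPKM and from 91.5 ± 3.61 to 48.9 ± 7.07 with Arg C (SD, n = 6), by 1.08 ± 0.12 and 0.90 ± 0.07 on the log2 scale (SE; adjusted p = 1.45e-06 and 7.42e-08). Under median-ratio scaling these changes were -0.42 and -0.25. H2afy, which encodes macroH2A, fell from 58.6 ± 2.19 to 16.1 ± 1.57 RPKM, and H2afv and H2afj rose from 34.7 ± 4.39 to 77.8 ± 21.5 and from 25.0 ± 2.37 to 50.6 ± 8.82. Under median-ratio scaling the log2 changes were -1.16 for H2afy, 1.75 for H2afv and 1.62 for H2afj. H2afx, a variant of the DNA damage response whose transcript also holds the stem-loop, fell from 19.2 ± 3.00 to 6.68 ± 4.14 RPKM with Arg C (log2 change -1.56 ± 0.16, SE; adjusted p = 9.61e-07; -0.97 under median-ratio scaling) and was 19.3 ± 12.0 RPKM with linezolid (-0.23 ± 0.16, adjusted p = 0.217; 0.05 under median-ratio scaling). H2afz was not called with Arg C (0.16 ± 0.07, adjusted p = 0.0547; 0.81 under median-ratio scaling) and rose by 0.33 ± 0.07 with linezolid (SE; adjusted p = 0.00105).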

How the data were processed

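The authors deposited 1 table of 45802 genes in 54 libraries. Its unit is not stated, and the values deposited by the authors were taken as RPKM, normalized by them to gene length and library total, since 99.95% of the 19284 genes with any value gave whole reads (tolerance 0.0001 of a read), at 8.0 to 12.5 M reads per library. Per the submitters' processing notes CASAVA and GRCm38.p5 were used; no source used here gives the aligner, counter, annotation or strand. The 3 technical replicates of a sample were averaged. Tests were two-sided, by limma 3.58.1 under R 4.3.3 with a mean-variance trend, on log2(RPKM + 1) of 18 samples with a coefficient per drug and cycle and experiment as a block (8 residual degrees of freedom). The 11004 genes that reached 0.5 RPKM in 2 samples or more entered, with Benjamini-Hochberg adjustment over all of them. The script was tested on simulated reads. Replicates share cultures, so p-values measure the spread between these samples, which may be technical.

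The members and the gene lists were chosen with earlier results of these data known. Named were up to 4 members per type with the highest mean, the 3 largest called rises and falls per comparison, and in each list the 3 smallest p and set genes; others named (Hist1h1a, Hist1h2ac, Hist1h2ao, Hist1h2bj, Hist1h4b) were chosen after their values were seen, and not every gene of the rule is printed. Positions are GRCm38 from GENCODE vM21. Stem-loops and shared words come from its transcripts, promoters from RefSeq. Alternatives were median-ratio scaling, a pseudocount of 0.1, other filters, limma-voom on the recovered reads, no experiment block, the 54 libraries with a replicate block, averaged cycles or drugs, limma without trend, and each experiment, sample or technical replicate left out. The fit by drug and experiment was added after the data were seen.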

Additional observations from a re-analysis of the deposited data

Results flagged for a closer look

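The effect of Arg C differed between the 2 experiments, by a test of the difference itself, for 13 of the 36 tested histone genes. All were higher in experiment 2 than in experiment 1, beside 16.1% higher and 2.32% lower of all genes. The filter may favour this direction. Of the 36 genes, 7 passed it only through Arg C samples, and the mean Arg C sum of all histone genes was 68.36 RPKM in experiment 2 and 42.95 in experiment 1. On the log2 scale the difference was 2.55 for Hist1h1d, 2.18 for Hist1h1c, 1.72 for Hist1h1e, 1.46 for Hist1h1b and 0.70 for Hist1h1a, all 5 tested linker histones. It was 1.23 for Hist2h2aa1, 0.73 for Hist1h2ao, 0.64 for Hist3h2a, 0.57 for Hist1h2ac and 0.41 for Hist1h2an among the H2a genes. It was 0.85 for Hist1h2bb, 0.69 for Hist2h2bb and 0.54 for Hist1h3i. For linezolid 6 genes differed in the same direction, by 1.19 for Hist1h1c, 0.88 for Hist1h1d, 0.72 for Hist3h2a, 0.70 for Hist1h1b, 0.69 for Hist1h2ap and 0.66 for Hist1h3a. Of all genes 24.4% were called higher there and 3.3% lower, so the share called higher was larger over all genes than among the histone genes. Under median-ratio scaling 9 histone genes were called for Arg C and 3 for linezolid, beside 4.72% and 6.92% of all genes called higher. Within an experiment the 3 samples of a drug are cycle fractions of the same cultures, so each drug and experiment is 1 independent unit and the p-values of these differences may be too small. Whatever else differed between the experiments cannot be told apart from experiment. Both drug comparisons use the same DMSO samples, in which the H1 sum was 9.49 ± 4.09 RPKM in experiment 1 and 5.03 ± 1.22 in experiment 2 (SD, n = 3).

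In 81 groups of 6 samples the gap between the highest or lowest sample and its neighbour passed Dixon's limit of 0.625 of the range 5 times. This is near the 1 in 20 groups that chance gives. The 6 samples of a group span cycles and experiments, and the sums hold genes that were also examined singly, so the groups are not independent. Hist3h2ba stood high at 3.27 RPKM in DMSO cycle 2 of experiment 2, as did the H2b sum at 8.45 RPKM in the same sample. Hist1h2bc was 3.54 RPKM in DMSO cycle 4 of experiment 1. In Arg C cycle 2 of experiment 2, Hist1h3i was 1.45 and Hist1h4m 3.46 RPKM.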

How the results depend on the processing

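Of 29 called values of named genes, 14 kept their call under every alternative run, among them the changes of Hist1h3c, Hist3h2ba, Hist1h4i, Hist2h2aa1 and Hist3h2a with Arg C. The fall of Hist1h2bc with Arg C was lost under median-ratio scaling, where its log2 change was 0.038 (limma, adjusted p = 0.749). With 1 experiment left out, the change with Arg C ranged from -0.54 to 1.18 for Hist1h1e, from -1.05 to 1.51 for Hist1h1d, from -0.52 to 0.94 for Hist1h1b and from -1.38 to 0.81 for Hist1h1c, lower without experiment 2 and higher without experiment 1 in each case. With linezolid the range was -0.36 to 0.51 for Hist1h1d and -0.21 to 0.49 for Hist1h1b.

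The filter of 1 RPKM in 9 samples left 11 histone genes, of which 5 were higher with Arg C, 3 with linezolid, 3 higher and 2 lower with Arg C against linezolid, and 4 lower in cycle 4. Median-ratio scaling gave 15 higher and 1 lower with Arg C against linezolid and 1 lower in experiment 2. No experiment block, and averaged cycles, each gave 2 lower with Arg C against linezolid; averaged drugs gave 20 lower in cycle 4. The 54 libraries with a replicate block, which treat technical replicates as samples, gave 17 lower in cycle 4 and 9 higher in experiment 2; this block moved no other of the 10 counts by over 1.5 times. A pseudocount of 0.1, limma-voom and limma without trend gave 1 higher in experiment 2 each. In the fit by experiment, experiment 1 gave 7 higher and 7 lower with Arg C and 6 lower with linezolid.

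With 1 experiment, sample or technical replicate left out, the count higher with Arg C ranged from 6 (without experiment 2) to 22, and the count lower from 2 to 9 (without experiment 2). With linezolid 6 to 11 were higher and 2 to 6 lower (without experiment 2). With Arg C against linezolid 3 (without experiment 2) to 18 (without experiment 1) were higher, 13 without Arg C cycle 3 of experiment 1, and 2 to 5 lower. In cycle 4, 7 to 14 were lower, 14 without Arg C cycle 2 of experiment 1, and 0 higher. For experiment 2 against experiment 1 the counts were 0 to 3 higher and 0 to 1 lower. The cause of these shifts was not tested. Most histone genes had few reads per library, which limits the precision of their values.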
